A study of Mus musculus with 6 samples.

Results

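The expression of 10 transcription factor genes that act downstream of T cell receptor stimulation was followed in mouse CD8+ T cells. The genes were *Irf4*, *Irf8*, *Batf*, *Batf3*, *Nr4a1*, *Nr4a2*, *Nr4a3*, *Nfil3*, *Bhlhe40* and *Ikzf2*, chosen by symbol and not by a threshold on measured values. Each symbol matched 1 of the 54446 genes in the deposited files, and all 10 were among the 14991 genes that were tested, those whose FPKM averaged 1 or more across the 6 libraries. FPKM counts the fragments of a transcript per unit of its length and of the sequencing done for its library. Gene values here are sums over transcripts.

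CD8+ T cells were purified by negative selection from spleens of wild type C57BL/6 mice aged 8 weeks, and total RNA was sequenced in 3 groups of 2 libraries. Unstimulated cells were fresh and received neither antibody nor magnets. Control cells spent 72 h on plates coated with antibodies to CD3 and CD28, without magnets. SMF-treated cells received the same stimulation for 72 h on magnets that gave a static magnetic field (SMF) of 0.3 T. The comparison of control with unstimulated cells asks how the factors respond to stimulation and culture, and the comparison of SMF-treated with control cells asks whether their expression differed under the field. The sources used here do not say whether the 2 libraries of a group came from separate mice or cultures, so the p values measure only the spread between these libraries.

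Signals from the T cell receptor, through calcium, calcineurin and NFAT, switch on IRF4 in proportion to their strength. IRF4 binds DNA weakly alone and is recruited by partners, among them the BATF-JUN dimers of the AP-1 family, to composite elements in genes of effector differentiation, metabolism and exhaustion. The NR4A proteins are orphan nuclear receptors, known as immediate early genes and as promoters of T cell dysfunction under continued stimulation, while NFIL3 and BHLHE40 are repressors induced by cytokine and receptor signals and IKZF2 (Helios) is an Ikaros family zinc finger protein best known in regulatory T cells.

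Of the members, 8 had a promoter in the RefSeq table for GRCm38.p6, 9 windows in all because *Irf8* had a pair, each from 250 bases before to 50 bases after a transcription start. They were *Irf4*, *Irf8*, *Batf*, *Batf3*, *Nr4a1*, *Nr4a2*, *Nr4a3* and *Nfil3*, and 8 of the 9 windows had a GC content above the median of all windows, 52.7%, the exception being *Batf* at 49.7%. The windows were searched on both strands for TGACGTCA (the cAMP response element, CRE), TGANTCA (the AP-1 site), AAAGGTCA (the element bound by NR4A monomers), CACGTG (the E-box bound by BHLHE40) and GGAAA (the core of NFAT sites). The CRE, the AP-1 site and the NR4A element occurred in none of the 9 windows, against 1.79%, 7.81% and 1.51% of the 32851 windows of the table. The E-box occurred once, in *Batf3*, against 7.15% of all windows, and the NFAT core, held by 61.3% of all windows, occurred in those of *Irf4*, *Irf8*, *Batf*, *Batf3* and *Nr4a2*. TGACG, which is part of the CRE and was added after the windows had been read, was present in 20.8% of all windows. It occurred 4 times in the window of each NR4A gene, once in those of *Batf* and *Nfil3*, and not in those of *Irf4*, *Irf8* and *Batf3*. The NR4A windows had a GC content of 64.7% to 81.7%, and how many of all windows hold TGACG 4 times was not counted. Shown for *Irf4*, *Batf* and *Nr4a1* are the 100 bases before the GENCODE start of the transcript with the most FPKM. That start lies at -7, -51 and 0 bases from the RefSeq start of the window. The 3 groups of *Irf4* did not overlap, and *Batf* was the member called between SMF-treated and control cells. *Nr4a1* was an NR4A gene called higher in stimulated than in unstimulated cells. Each stretch is on the plus strand, at chr13:30749126-30749225, chr12:85686569-85686668 and chr15:101266746-101266845, and capitals mark GGAAA or TGACG on either strand.
Irf4: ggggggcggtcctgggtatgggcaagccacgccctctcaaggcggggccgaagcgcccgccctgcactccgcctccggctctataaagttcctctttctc
Batf: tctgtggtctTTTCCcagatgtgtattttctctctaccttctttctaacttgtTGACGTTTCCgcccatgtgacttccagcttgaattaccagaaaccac
Nr4a1: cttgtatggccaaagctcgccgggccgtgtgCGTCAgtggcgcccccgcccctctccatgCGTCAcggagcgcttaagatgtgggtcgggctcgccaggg
In *Batf* the run of capitals joins 1 TGACG to the reverse complement of 1 GGAAA. The window of *Nr4a2* lies at an upstream start, 57124003, whose transcripts did not exceed 1.01 FPKM in any library. These matches describe the letters of the windows and were not related to binding, which was not measured here.

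The libraries differed in ways that touch these genes. Depth, computed as coverage times length summed over all transcripts, ranged from 64.4 to 259 Mb and was highest in both SMF libraries. Protein-coding genes took 49.1% to 50.5% of the summed FPKM in unstimulated and control cells and 69.2% and 68.7% in SMF-treated cells. Unstimulated and control replicate 1 shared 1 date in the file headers, unstimulated and control replicate 2 another, and both SMF libraries a date of their own. The headers do not say what the dates mark. The field and the header date therefore cannot be told apart, whereas control and unstimulated cells can be compared within a date. Stimulation was visible in *Il2ra*, *Cd44* and *Gzmb*, all called higher, and in *Il7r* and *Klf2*, both called lower, in control compared with unstimulated cells. The 6 CD8 T cell markers were above 0 in every library and summed to 349 to 950 FPKM. The 5 B cell markers summed to 133 and 102 FPKM in the unstimulated libraries, to 23.3 and 8.46 FPKM in control cells and to 4.85 and 2.71 FPKM in SMF-treated cells, with *Pax5* at 0 in both SMF libraries. The 6 dendritic cell markers summed to 15.9 and 25.5 FPKM in unstimulated, 2.56 and 3.998 in control and 1.16 and 0.45 FPKM in SMF-treated cells. The 7 myeloid markers summed to 131 and 153 FPKM in unstimulated and 41.1 to 53.8 FPKM in stimulated cells. *Csf1r* alone gave 41.1 to 53.8 FPKM of the stimulated sums, and the other markers, *Lyz2* included, were at 0 there but for *Itgam* at 0.18 FPKM in SMF replicate 2. *Foxp3* and *Cd4* together reached 9.59 to 22.8 FPKM in all 6 libraries. *Foxp3* alone was at 4.92 to 20.7 FPKM. *Cd4* did not exceed 4.68 FPKM and was at 0 in control replicate 1 and both SMF libraries.

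Of the 10 factors, 7 were called higher after 72 h of stimulation and culture. Unstimulated cells were fresh, so stimulation and time in culture cannot be told apart. In control compared with unstimulated cells, *Nr4a2*, *Nr4a3*, *Irf4*, *Nr4a1*, *Nfil3*, *Bhlhe40* and *Irf8* were higher by 2.24 to 4.74 on the log2(FPKM + 1) scale, and none of the 10 was called lower. A call needed a 2-fold change or more and an unadjusted limma p no higher than 0.05. Among all genes tested 12.3% were called higher and 12.6% lower in this comparison. Of the 10 factors 6 also had an adjusted p of at most 0.05 (limma, Benjamini-Hochberg), against 8.48% of all genes. The median log2 fold change of the 10 was 2.47, beside -0.05 over all genes tested. In SMF-treated compared with unstimulated cells 7 factors were again called higher and 0 lower, where 22.4% of all genes were called higher and 14.8% lower, and 6 had an adjusted p of at most 0.05, as did 23.6% of all genes. Both comparisons use the same unstimulated libraries.

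**Figure D1:**
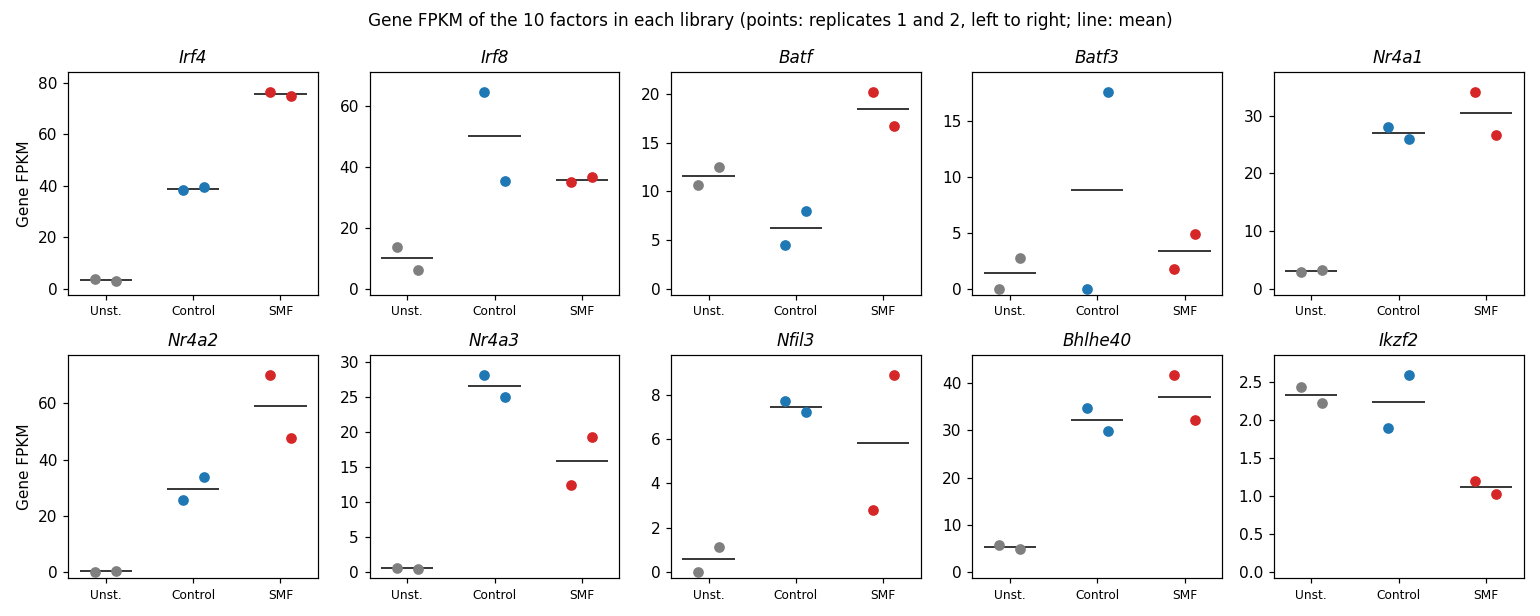
Gene FPKM of the 10 factors in the 6 libraries, with 1 panel a gene, the group on the x axis, points for replicates 1 and 2 and a line at their mean. *Irf4* lay at 3.12 and 3.79 FPKM in unstimulated cells, at 38.2 and 39.3 in control cells and at 74.9 and 76.5 in SMF-treated cells, with no overlap between groups.

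*Irf4* (ENSMUSG00000021356.10, chromosome 13, 30749226 to 30766976, plus strand) encodes the factor that is required for clonal expansion and effector differentiation of CD8+ T cells. Its level was 3.79 and 3.12 FPKM in the unstimulated libraries, 38.2 and 39.3 FPKM in control cells and 76.5 and 74.9 FPKM in SMF-treated cells. The groups were ordered SMF, control and unstimulated without overlap, and the replicates of each group lay close together. *Irf4* rose by 3.16 on the log2 scale in control compared with unstimulated cells (SE 0.31, adjusted p 0.0080 in limma). The difference within the header date of replicate 1 was 3.03 and within that of replicate 2 it was 3.29. In SMF-treated compared with unstimulated cells the rise was 4.11 (SE 0.31, adjusted p 0.0030 in limma).

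The reads of *Irf4* were divided by the authors' quantification between transcripts that differ by 3 bases. Irf4-201 (4764 bases) and Irf4-202 (4761 bases) use acceptor sites 3 bases apart at the start of exon 5, within the coding sequence, where exon 5 begins at 30753445 or at 30753448. The bases around the junction are shown on the plus strand of the transcripts (GENCODE, GRCm38), with 12 bases on either side and the 3 additional bases in capitals.
Irf4-201: ctgccagcccagCAGgttcataactac
Irf4-202: ctgccagcccaggttcataactac
Irf4-201 held the whole gene value in both unstimulated libraries and in control replicate 1. In control replicate 2 it held 12.5 FPKM and Irf4-202 held 23.5 FPKM. In the SMF libraries Irf4-201 held 44.7 and 51.9 FPKM and Irf4-202 held 29.9 and 23.0 FPKM. The split thus differed between the control replicates while their sums did not, and the sums are used here.

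*Irf8* (ENSMUSG00000041515.10, chromosome 8), a relative of IRF4 that is also a lineage factor of B cells, dendritic cells and monocytes, was at 13.8 and 6.28 FPKM in unstimulated, 64.9 and 35.5 FPKM in control and 35.1 and 36.6 FPKM in SMF-treated cells. All 4 stimulated libraries exceeded both unstimulated libraries, and control replicate 1 stood apart from the other stimulated libraries. *Irf8* rose by 2.24 in control compared with unstimulated cells (SE 0.48, adjusted p 0.0427 in limma), with 2.15 within the header date of replicate 1 and 2.33 within that of replicate 2. The rise in SMF-treated compared with unstimulated cells was 1.83 (SE 0.48, adjusted p 0.0404 in limma). This second call did not hold without unstimulated replicate 2, SMF replicate 1 or SMF replicate 2, with unadjusted p values of 0.0576, 0.0514 and 0.0563. Retained-intron transcript Irf8-202 accounted for 26.1 FPKM of control replicate 1 and 11.6 FPKM of SMF replicate 1 but for 1.77 and 1.13 FPKM of the second replicates. The coding transcript Irf8-201 was at 35.7 and 33.4 FPKM in control cells and at 23.3 and 33.8 FPKM in SMF-treated cells. *Spib*, an ETS partner of IRF4 and IRF8 in B cells, was at 10.4 and 4.74 FPKM in the unstimulated libraries and at 0 in the other 4. The B cell markers were higher and *Irf8* lower in unstimulated than in stimulated libraries. Within the unstimulated and within the control group, replicate 1 had a larger sum of these markers and more *Irf8* than replicate 2. By single markers, *Pax5* was higher in replicate 2 of both groups and *Cd22* in control replicate 2. The sums of the dendritic cell and of the myeloid markers were larger in replicate 2 of both groups. Of the SMF libraries, replicate 1 had the larger B cell sum but slightly less *Irf8*, 35.1 beside 36.6 FPKM. Control replicate 1 had the largest B cell sum and the most *Irf8* of the stimulated libraries. Of that *Irf8* value, 26.1 FPKM came from Irf8-202. The part of B cells in the unstimulated level was not tested, and in bulk RNA fewer cells of a type and less RNA per cell cannot be told apart.

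All 3 NR4A genes were called higher after stimulation, and *Nr4a2* and *Nr4a3* were under 1 FPKM in both unstimulated libraries. *Nr4a1* (ENSMUSG00000023034.7, chromosome 15), which encodes NUR77, a common reporter of receptor signalling, was at 2.83 and 3.25 FPKM in unstimulated, 28.1 and 25.9 FPKM in control and 34.2 and 26.6 FPKM in SMF-treated cells. Its stimulated groups overlapped and both lay far above the unstimulated group, by 2.80 (SE 0.35, adjusted p 0.0134 in limma) in control and 2.95 (SE 0.35, adjusted p 0.0058 in limma) in SMF-treated cells. *Nr4a2* (ENSMUSG00000026826.13, chromosome 2, minus strand) was at 0 and 0.29 FPKM in unstimulated, 25.6 and 33.8 FPKM in control and 70.2 and 47.8 FPKM in SMF-treated cells. The increase of *Nr4a2* in control compared with unstimulated cells was 4.74 (SE 0.41, adjusted p 0.0071 in limma), the largest among the 10. *Nr4a3* (ENSMUSG00000028341.9, chromosome 4) was at 0.59 and 0.46 FPKM in unstimulated, 28.2 and 25.0 FPKM in control and 12.5 and 19.3 FPKM in SMF-treated cells. *Nr4a3* was the second largest increase in control compared with unstimulated cells at 4.18 (SE 0.43, adjusted p 0.0093 in limma). Because 1 is added to each FPKM before the logarithm, these values understate the changes of genes that start near 0. As sums over transcripts the 3 NR4A genes lay between 25.0 and 33.8 FPKM in control and 12.5 and 70.2 FPKM in SMF libraries. With each transcript weighted by its length, the ranges were 10.5 to 33.3 FPKM in control and 8.91 to 33.0 FPKM in SMF libraries.

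*Batf* (ENSMUSG00000034266.6, chromosome 12), the AP-1 factor that pairs with JUN proteins and recruits IRF4, did not follow the other factors. It was at 10.6 and 12.5 FPKM in unstimulated, 4.46 and 7.98 FPKM in control and 20.3 and 16.7 FPKM in SMF-treated cells. The 3 groups did not overlap, and their order was SMF, unstimulated and control. Neither neighbouring step passed the test, with -0.84 (95% interval -1.87 to 0.18) for control compared with unstimulated cells and 0.63 (95% interval -0.39 to 1.65) for SMF-treated compared with unstimulated cells. Without control replicate 2 the first of these reached -1.20 and was called (unadjusted p 0.0313). Coding transcript Batf-201 held at least 93.8% of the gene value in every library. *Batf3* (ENSMUSG00000026630.9, chromosome 1), a relative required by cross-presenting dendritic cells and for memory formation, was at 0 and 2.73 FPKM in unstimulated, 0 and 17.6 FPKM in control and 1.74 and 4.91 FPKM in SMF-treated cells. For *Batf3* 1 control library was at 0 and the other was the highest of all 6 libraries. Unstimulated and control replicate 1, where *Batf3* was listed at 0, had the least depth, 67.4 and 64.4 Mb. The part of depth in this was not tested. The difference between control and unstimulated cells was 1.16 (95% interval -2.35 to 4.66), and it was called at 3.27 without control replicate 1 (unadjusted p 0.0465) and was -0.95 without control replicate 2. In control replicate 2, Batf3-205, annotated as a processed transcript, held 9.62 FPKM and coding transcript Batf3-201 held 5.82 FPKM. Levels of *Batf3* were thus not measured closely enough to order the groups.

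Of the repressors, *Nfil3* (ENSMUSG00000056749.7, chromosome 13), a bZIP factor known for its part in NK cell development and cytokine gene control, was at 0 and 1.13 FPKM in unstimulated, 7.71 and 7.19 FPKM in control and 2.78 and 8.89 FPKM in SMF-treated cells. All 4 stimulated libraries were above both unstimulated libraries, with the SMF replicates on either side of the control replicates. Unstimulated replicate 1, where *Nfil3* was listed at 0, had a depth of only 67.4 Mb. The increase in control compared with unstimulated cells was 2.54 (SE 0.69, unadjusted p 0.0099, adjusted p 0.0762 in limma), and that in SMF-treated cells was 2.07 (SE 0.69, unadjusted p 0.0233, adjusted p 0.0761 in limma). Both calls were lost without unstimulated replicate 1, control replicate 1 or control replicate 2, and the second also without SMF replicate 2, with unadjusted p values from 0.0538 to 0.149. *Bhlhe40* (ENSMUSG00000030103.11, chromosome 6), a bHLH repressor needed for cytokine production and mitochondrial fitness of T cells, was at 5.71 and 4.77 FPKM in unstimulated, 34.6 and 29.8 FPKM in control and 41.8 and 32.2 FPKM in SMF-treated cells. *Bhlhe40* rose by 2.41 (SE 0.34, adjusted p 0.0164 in limma) in control and by 2.60 (SE 0.34, adjusted p 0.0067 in limma) in SMF-treated compared with unstimulated cells. In the unstimulated libraries 5.18 and 2.24 FPKM of it came from the retained-intron transcript Bhlhe40-204, and the full coding transcript Bhlhe40-201 was at 0.53 and 0.998 FPKM there, compared with 19.4 and 18.0 FPKM in control cells. An antisense gene, *0610040F04Rik*, overlaps *Bhlhe40* by 118 bases on the opposite strand. It was at 7.84 and 6.78 FPKM in unstimulated, 142 and 145 FPKM in control and 30.4 and 54.8 FPKM in SMF-treated cells, and reads were assigned by strand in the authors' files.

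*Ikzf2* (ENSMUSG00000025997.13, chromosome 1, minus strand) had the lowest stimulated levels of the factors that were above 0 in every library. It was at 2.43 and 2.22 FPKM in unstimulated, 1.89 and 2.59 FPKM in control and 1.19 and 1.03 FPKM in SMF-treated cells. Unstimulated and control cells overlapped and both SMF libraries were below them. None of its comparisons passed the test, the control compared with unstimulated difference being -0.05 (95% interval -1.35 to 1.26). Only 2 of its 9 annotated transcripts were above 0 in any library.

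**Figure D2:**
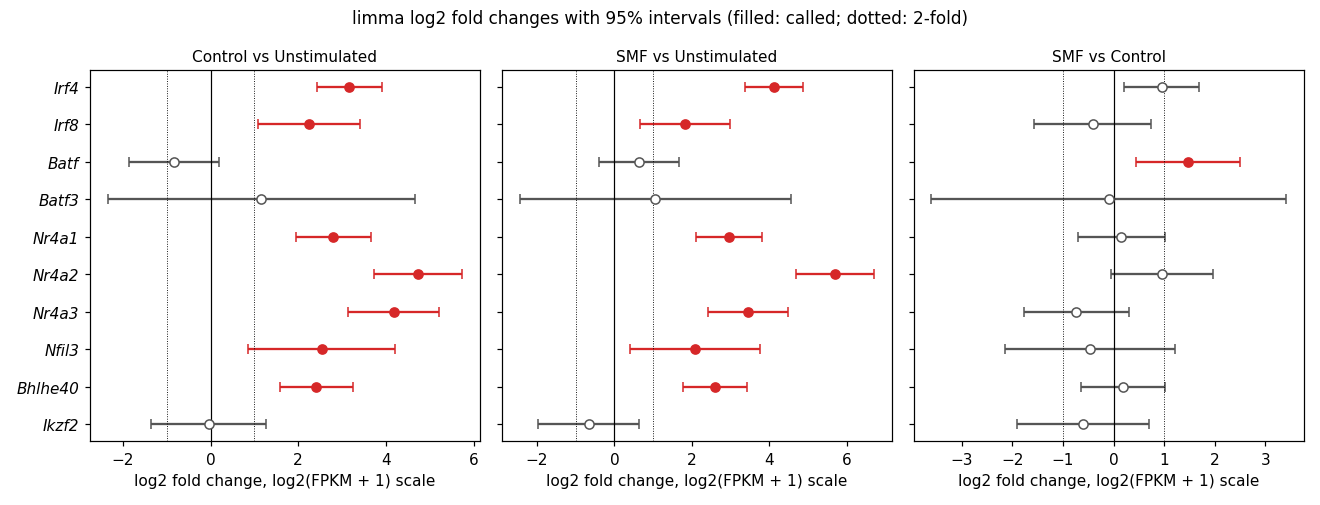
Log2 fold changes of the 10 factors from limma on the log2(FPKM + 1) scale, with bars for 95% intervals, filled symbols for called genes and dotted lines at a 2-fold change. In both comparisons with unstimulated cells 7 factors were called, and in SMF-treated compared with control cells only *Batf* was.

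Between SMF-treated and control cells 1 of the 10 factors was called. *Batf* rose by 1.47 on the log2 scale, 2.77-fold (SE 0.42, 95% interval 0.45 to 2.50, unadjusted p 0.0123, adjusted p 0.168 in limma), and without SMF replicate 1 it was 1.34 with an unadjusted p of 0.0716. *Batf* was lowest, at 4.46 FPKM, in control replicate 1, the library of least depth at 64.4 Mb. How many fragments lay behind that value is not given, and without that library the difference was 1.11. Of all genes tested 12.5% were called higher and 5.72% lower, so 1 of 10 called higher is near the background. None of the 10 had an adjusted p (limma) at or under 0.05, as 0.0267% of all genes did, so the count was 0 of 10. At an unadjusted p of at most 0.05 there were 2 of the 10, *Batf* and *Irf4*. *Irf4* was 1.93-fold higher in SMF-treated cells, a log2 difference of 0.95 (SE 0.31, 95% interval 0.20 to 1.69, unadjusted p 0.0203, adjusted p 0.184 in limma), just under the 2-fold limit. Both SMF libraries were above both control libraries for *Irf4*, *Batf* and *Nr4a2*, 3 of 10, while this held for 37.4% of all genes. Both SMF libraries were below both control libraries for *Nr4a3* and *Ikzf2*, 2 of 10, against 17.4% of all genes.

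The median difference of all genes between SMF-treated and control cells was 0.32 on the log2 scale. With each library shifted to one median, *Irf4* was 0.61 higher (unadjusted p 0.110), *Batf* was 1.13 higher and still called (unadjusted p 0.0334), and *Nr4a3* was called lower by -1.08 (unadjusted p 0.0486). Of the 6 CD8 T cell markers 3 were called higher in SMF-treated compared with control cells, *Cd8a*, *Cd3d* and *Trac*, with *Cd8a* at 2.01. The others, *Cd3g*, *Cd8b1* and *Cd3e*, were 0.95, 0.24 and 0.20 higher and not called. The part of these markers in the *Batf* result was not tested. Genes called higher numbered 1868 and genes called lower 857 in this comparison, and 877 and 1441 after the shift.

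As sums over transcripts, *Nr4a2* and *Nr4a3* were at like levels in control and lay apart in SMF libraries. Neither difference between SMF-treated and control cells passed the test. *Nr4a2* was 0.95 higher (95% interval -0.05 to 1.96, unadjusted p 0.0586) and *Nr4a3* was -0.74 (95% interval -1.77 to 0.30, unadjusted p 0.133). For *Nr4a2* the value rested on which transcript received the reads. Nr4a2-204, a processed transcript of 182 bases, held 26.6 and 21.4 FPKM in the SMF libraries and 0 in the other 4. Nr4a2-202, a coding transcript, held 29.7 FPKM in SMF replicate 1 and 0 elsewhere. The main coding transcript Nr4a2-201 (3568 bases) was at 25.6 and 32.3 FPKM in control and at 10.8 and 23.1 FPKM in SMF-treated cells. Summing protein-coding transcripts only gave 0.09 for SMF-treated compared with control cells, and weighting each transcript by its length gave 0.00017, both alternatives chosen after the data were seen. Under the same 2 alternatives *Irf4* was 0.95 and 0.99 higher and *Batf* 1.45 and 1.46 higher, *Batf* being called in both. *Nr4a3* was -0.17 and -0.44, and its 2 coding transcripts changed places between SMF libraries. Nr4a3-201 held 0.53 FPKM in SMF replicate 1 and 17.0 FPKM in SMF replicate 2, where Nr4a3-203 held 8.63 and 0 FPKM. In the control libraries Nr4a3-201 held 28.2 and 6.00 FPKM, and the short Nr4a3-202 held 0 and 12.4 FPKM.

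**Figure D3:**
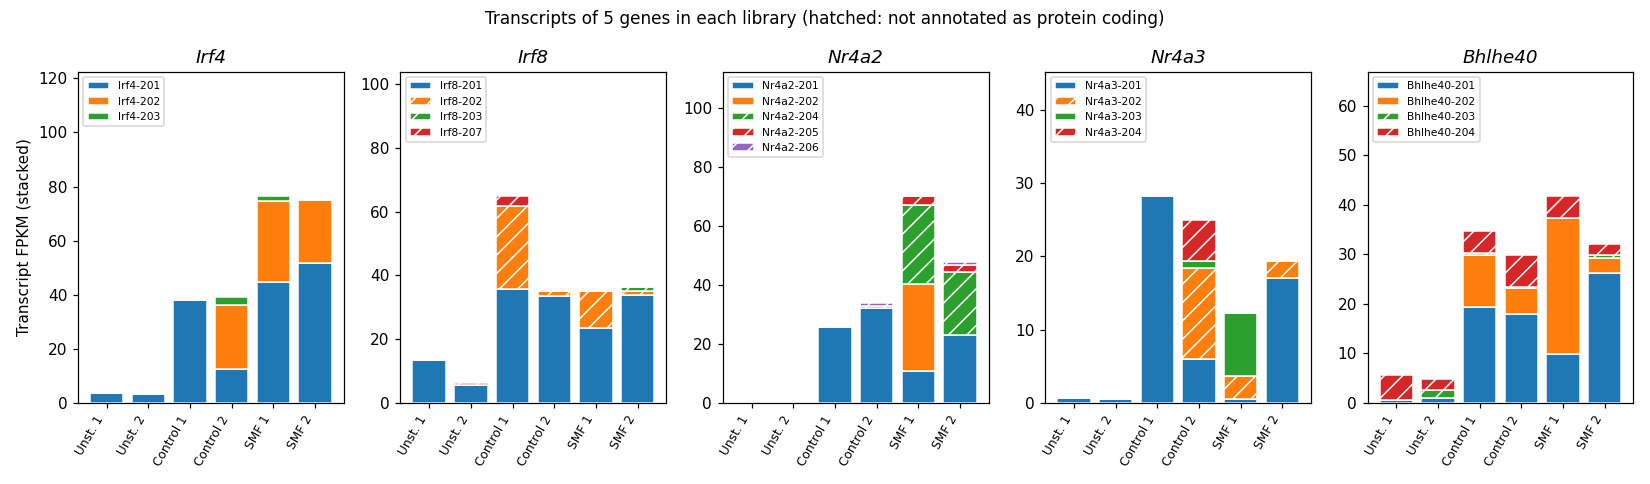
Transcript FPKM stacked to the gene value in each of the 6 libraries for *Irf4*, *Irf8*, *Nr4a2*, *Nr4a3* and *Bhlhe40*, showing transcripts with at least 1 FPKM in any library and hatching those not annotated as protein coding. The hatched Nr4a2-204 is present at 26.6 and 21.4 FPKM in the SMF libraries and absent from the others, while Irf4-201 is the larger *Irf4* transcript except in control replicate 2, where Irf4-202 is.

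None of the other 6 factors passed the test between SMF-treated and control cells, and their intervals are wide. The difference was 0.16 for *Nr4a1* (95% interval -0.70 to 1.01), 0.18 for *Bhlhe40* (95% interval -0.64 to 1.01) and -0.41 for *Irf8* (95% interval -1.57 to 0.75). It was -0.47 for *Nfil3* (95% interval -2.14 to 1.21), -0.61 for *Ikzf2* (95% interval -1.915 to 0.69) and -0.10 for *Batf3* (95% interval -3.61 to 3.40). A 2-fold increase lies inside the intervals of *Nr4a1* and *Bhlhe40*, a 2-fold decrease inside those of *Irf8* and *Ikzf2*, and both inside those of *Nfil3* and *Batf3*. In *Bhlhe40* the short coding transcript Bhlhe40-202 (476 bases) held 27.4 FPKM of SMF replicate 1 and 3.07 FPKM of SMF replicate 2.

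**Figure D4:**
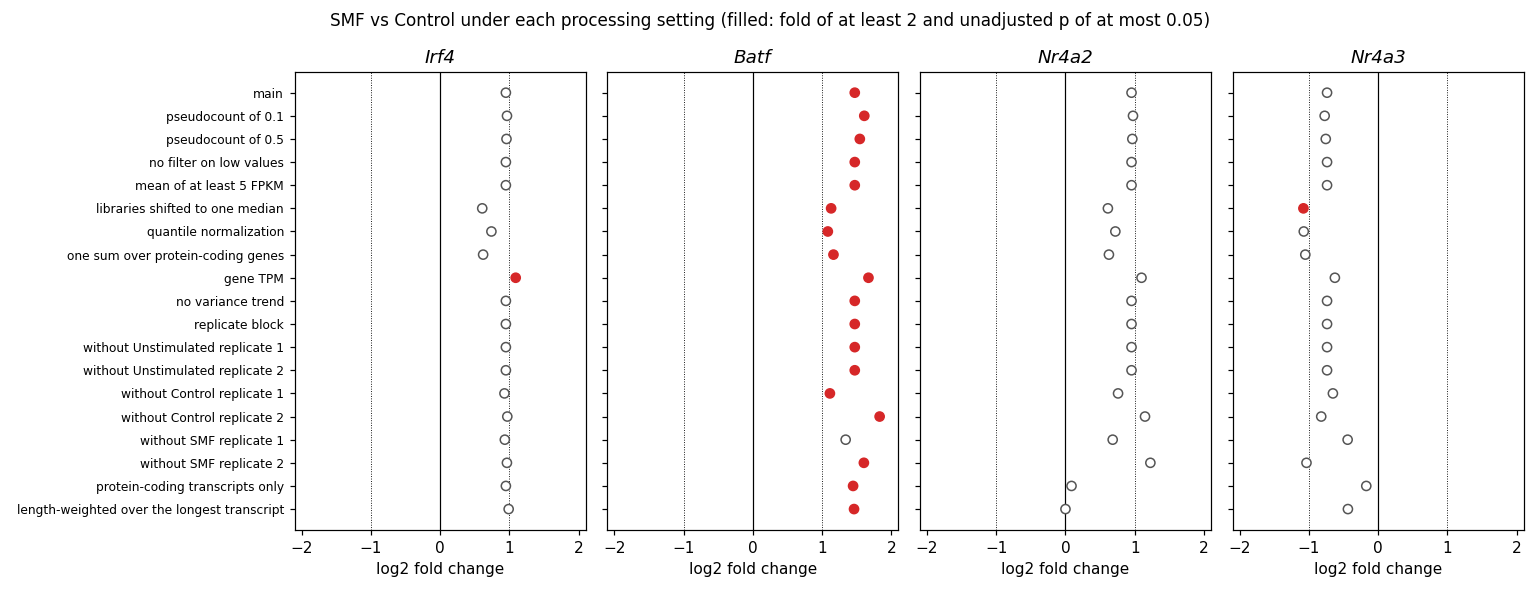
Log2 fold changes of *Irf4*, *Batf*, *Nr4a2* and *Nr4a3* in SMF-treated compared with control cells, with 1 row for each processing setting and filled symbols where the fold was at least 2 and the unadjusted p at most 0.05. *Irf4* runs from 0.61 to 1.09 and passes only with gene TPM, *Batf* runs from 1.08 to 1.83 and fails only without SMF replicate 1, and *Nr4a2* falls to 0.09 and 0.00017 in the last 2 rows.

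Relatives of the members were counted against 12.3% called higher and 12.6% called lower among all genes tested in control compared with unstimulated cells. Among the 7 other IRF genes, whose median log2 fold change was -0.61, 1 was called lower and 0 higher in control compared with unstimulated cells. That was *Irf1*, an interferon response factor, at 72.7 and 53.7 FPKM in unstimulated and 19.1 and 30.6 FPKM in control cells, and it fell by 1.33 (SE 0.37, adjusted p 0.0779 in limma). Of 8 AP-1 partners and relatives 7 were tested, with a median of -0.69, and 1 rose and 3 fell. *Fos*, the immediate early partner of JUN, was at 40.1 and 37.3 FPKM in unstimulated and 0 and 1.27 FPKM in control cells and fell by 4.72 (SE 0.55, adjusted p 0.0120 in limma). *Fosb* fell by 2.76 and *Jun* by 1.84, while *Fosl2* rose by 1.69, and these 3 had adjusted p values of 0.0696, 0.0977 and 0.116 in limma. Thus at 72 h *Fos* and *Jun* were below, and *Nr4a1*, *Nr4a2* and *Nr4a3*, which are likewise immediate early genes, above their unstimulated levels. *Junb* and *Jund*, partners of BATF, were at 72.6 to 107 and 76.7 to 166 FPKM across the libraries and were not called in any comparison. The PAR bZIP relatives of NFIL3, activators of the same sites, had 2 tested genes with 0 called in control compared with unstimulated cells. In SMF-treated compared with unstimulated cells *Tef* rose by 2.21 and *Dbp* fell by 1.35. Of the 4 other Ikaros genes 0 were called in either comparison with unstimulated cells. In SMF-treated compared with control cells, where 12.5% of all genes tested were called higher, each of these 4 lists had 1 gene called higher and 0 lower. They were *Irf9* at 1.16, *Fos* at 1.51, *Tef* at 1.53 and *Ikzf1* at 1.01, with adjusted p values from 0.199 to 0.228 in limma.

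Upstream of the factors, 6 calcineurin and NFAT genes gave 0 called higher and 1 called lower in control compared with unstimulated cells, with a median of -0.60. The latter was *Nfatc3*, one of the NFAT proteins, at -1.02 (SE 0.39, adjusted p 0.158 in limma). In SMF-treated cells 0 of the 6 were called against unstimulated cells, with a median of -0.33, and 0 of the 6 against control cells, with a median of 0.27, and in both comparisons 0 of the 6 had an unadjusted limma p under 0.05. Downstream, 12 effector and exhaustion genes included 7 that were tested, with 5 called higher and 0 lower in control compared with unstimulated cells and a median of 4.06. *Gzmb*, the granule protease, was at 10.2 and 11.7 FPKM in unstimulated and 1494 and 1565 FPKM in control cells and rose by 7.01 (SE 0.32, adjusted p 0.0018 in limma). *Ctla4*, an inhibitory receptor, rose by 5.42 (SE 0.66, adjusted p 0.0133 in limma). The inhibitory receptors *Lag3* and *Pdcd1*, known targets of NR4A and NFAT proteins, were listed at 0 in both unstimulated libraries and were at 18.3 and 19.9 FPKM and at 14.2 and 17.4 FPKM in control cells. *Prdm1*, a target of IRF4, did not reach 1 FPKM in any library, and *Il10* was listed at 0 in all 6.

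**Figure D5:**
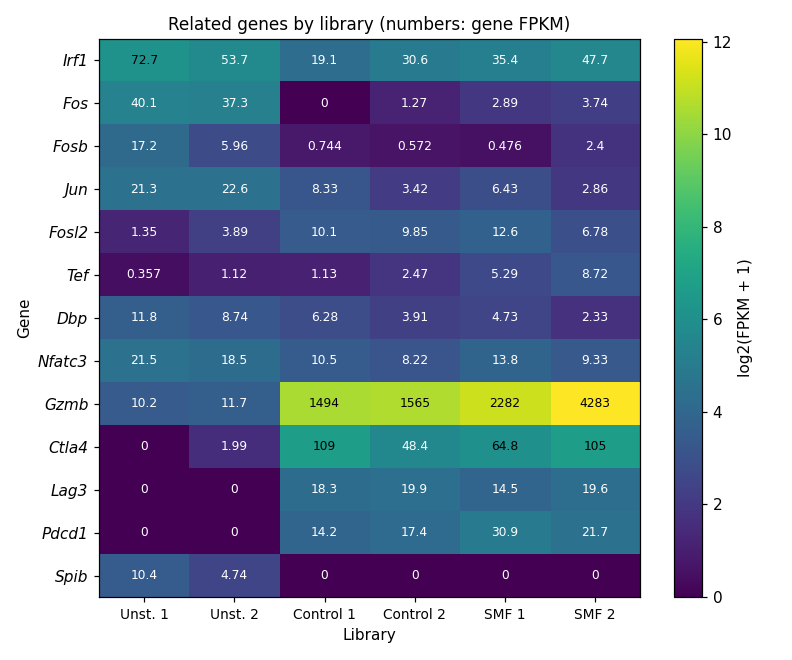
Heat map of 13 related genes (rows) in the 6 libraries (columns), with colour for log2(FPKM + 1) and gene FPKM printed in each cell. *Fos*, *Fosb* and *Jun* are highest in unstimulated cells, and *Gzmb*, *Ctla4*, *Lag3* and *Pdcd1* in stimulated cells.

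The genes most like *Irf4*, *Irf8* and *Nr4a1* were taken by Pearson's r of log2(FPKM + 1) over the 6 libraries among the 6923 protein-coding genes that averaged 5 FPKM or more, as a description. For *Irf4* they were *Melk*, *Mcm3* and *Ptma*, each with r of 0.999. *Mcm3*, a subunit of the replicative helicase, was at 13.0 and 12.1 FPKM in unstimulated, 51.7 and 54.7 FPKM in control and 90.4 and 78.7 FPKM in SMF-treated cells, the same order of groups. For *Nr4a1* they were *Cdca2*, *Ptpn5* and *Aurkb* with r between 0.997 and 0.999, and for *Irf8* they were *Pdgfb*, *Fam107b* and *Ndufv3* with r between 0.987 and 0.997. The points share their libraries, groups and header dates, and with 6 of them any gene that rises with stimulation in like steps scores highly.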

How the data were processed

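Gene expression was measured by RNA-Seq of total RNA with a strand-keeping kit. Trimmomatic 0.36 and HISAT2 are named in the submitters' processing notes. For each library the authors deposited the output of StringTie 1.3.5, restricted to annotated transcripts of GENCODE M19 on GRCm38 with strand used, holding FPKM, TPM and coverage. FPKM and TPM deposited by the authors are scaled to library and transcript length, and the deposited coverage is not. A further deposited table was left out because its 3 columns of values could not be matched to samples. Whole counts are not given, so counting intervals could not be had, and a 0 is only a listing at 0.

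Gene FPKM was summed over transcripts, and log2(FPKM + 1) was modelled by limma (3.58.1, under R 4.3.3) for 14991 genes averaging 1 FPKM or more, all 3 groups in a single fit with a variance trend, leaving 3 residual degrees of freedom. Calls used the thresholds of the study, 2-fold or more at an unadjusted p no higher than 0.05, with Benjamini-Hochberg values over all genes beside them. An exact permutation test of 2 against 2 libraries cannot go below 0.333. Transcript types came from GENCODE M21, which named all 45 transcripts of the members. Figures and motif searches used Python 3.11.15 with pandas 2.3.3.

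The members, lists and tests were chosen with earlier results of these data known. All members were named, at most 4 called genes of each related list by the size of their change in control compared with unstimulated cells (in SMF-treated compared with unstimulated cells where fewer than 2 were called), 3 genes most like each of *Irf4*, *Irf8* and *Nr4a1*, and at most 3 transcripts a gene. *Junb*, *Jund*, *Prdm1*, *Il10*, *Cd3d*, *Cd3e*, *Cd3g*, *Trac*, *Foxp3*, *Cd4*, *Csf1r*, *Itgam*, *Irf9*, *Ikzf1* and *0610040F04Rik* were named after their values were seen. As alternatives the pseudocount, filter and scaling were varied, with gene TPM, no variance trend, a replicate block, adjusted p values, leaving out each library, and 2 ways of summing transcripts that were added after the data were seen. Some genes of the related and marker lists are not reported here.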

Additional observations from a re-analysis of the deposited data

How the results depend on the processing

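Over the alternatives, 495 tested fold changes of the members kept direction and side of the threshold, 11 lost and 4 gained a call in the same direction, and 21 changed direction, as did 1 untested difference within a header date, none of these 22 a called value. Of the counts of calls 101 stayed within 1.5 times and 13 did not. For SMF-treated compared with control cells, the number of members called was 0 with adjusted p values, 2 with gene TPM (*Irf4* and *Batf*), 2 with libraries shifted to one median (*Batf* and *Nr4a3*) and from 0 to 1 when libraries were left out. All genes called numbered 1271, 3537 and 4 with adjusted p values and 2066, 3435 and 1616 with protein-coding transcripts only, for control compared with unstimulated, SMF-treated compared with unstimulated and SMF-treated compared with control cells. Leaving out a library gave 1367 to 3379 genes for the last comparison, with 1367 without SMF replicate 1, 1637 without SMF replicate 2 and 1768 without control replicate 1. Of the genes called in that comparison 1868 were higher and 857 lower, but 877 and 1441 with libraries shifted to one median, 1030 and 1215 with quantile normalization and 931 and 1307 with one sum over protein-coding genes. In SMF-treated compared with unstimulated cells 3351 higher and 2226 lower became 2347 and 2978 with one sum over protein-coding genes.

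Direction changed for SMF-treated compared with control cells in *Batf3*, which was 1.19 and 0.21 with pseudocounts of 0.1 and 0.5, 0.29 with gene TPM, 0.45 without SMF replicate 1, from -2.21 to 2.01 over the libraries left out, the latter without control replicate 2, and 0.046 with length weighting. *Nr4a1* was -0.19, -0.17 and -0.17 with the median shift, quantile normalization and one sum over protein-coding genes, -0.020 to 0.33 over the libraries left out, the lowest without SMF replicate 1, and -0.045 with length weighting. *Bhlhe40* was -0.16, -0.11 and -0.14 under those 3 scalings and -0.11 with length weighting. Over the libraries left out *Irf8* ranged from -0.84 to 0.012, the latter without control replicate 1, and *Nfil3* from -1.16 to 0.23, the latter without SMF replicate 1. For control compared with unstimulated cells *Ikzf2* was 0.041 with the median shift, 0.14 with quantile normalization, from -0.20 to 0.11 over the libraries left out, the latter without control replicate 1, and 0.16 within the header date of replicate 2, and *Batf3* ran from -0.95 without control replicate 2 to 3.27 without control replicate 1. The cause was not tested.

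With the replicate number as a block, the 7, 7 and 1 members called in the 3 comparisons were again 7, 7 and 1. Same-numbered libraries deviated together with r of 0.096, 0.030 and 0.021, so the pairing is not used. *Batf3*, *Nfil3* and *Ikzf2* have a mean under 5 FPKM and no value with that filter. Depth is known only as the sum of coverage times length over transcripts, and 2 libraries a group leave wide intervals.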
